A study of Danio rerio with 2 samples.

Results

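The genes described here are those that mark endothelial cells, which line blood and lymphatic vessels, together with the ligands, receptors and transcription factors that signal in them. They were followed in the livers of zebrafish larvae that were 5 days old, counted from fertilization. Their members were fixed as a list of 54 gene symbols, looked up without regard to case among the Ensembl gene IDs of the count tables. A symbol ending in a or b that had no entry was looked up without that letter. By this rule 52 of the 54 symbols were matched, and they gave 53 gene IDs of the 31953 in the tables. The symbols pecam1 and etv2 had no match and are not analysed here.

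The series compared 1 man1a2 morphant library with 1 control library. Morphant larvae came from eggs injected at the one-cell stage with a morpholino (an antisense oligonucleotide that blocks translation or splicing) against man1a2, which encodes a mannose-trimming enzyme of the Golgi, and control larvae were not injected. Each library was made from liver RNA pooled over 3 batches of larvae, with 100 livers stated, so there was no replicate of either group and no sequenced pool of larvae injected with a control oligonucleotide. Several transgenic lines were used in the study, and neither the line nor the morpholino and dose behind the sequenced pool was given in the sources used here.

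The oligonucleotides named for man1a2 are shown because they define the morphant group. Capitals mark the reverse complement of ATG, a start codon, in the first and of GGTGAG, the form of a splice donor, in the second. The labels give doses of 1.5 or 4.5 ng for the first and 5 or 7.5 ng for the second.
man1a2-ATG MO: ccggcgtggtCATattttgatgatc
man1a2-splicing MO: aagaatgtaaaCTCACCtctctgat

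Endothelial cells are built and kept by a small set of signals. Vegf ligands bind Kdr, Kdrl, Flt1 and Flt4, angiopoietins bind Tek, apelin binds its own receptors, and ETS and SoxF transcription factors hold the endothelial programme in place. In the mammalian liver the vessels between hepatocyte plates are sinusoids. Their endothelium is known in mammals for open pores and for scavenger receptors that take up hyaluronan, mannose-ended glycoproteins and other ligands from the blood.

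The morphant library held 19783886 counts and the control library 19658335. The 10 hepatocyte markers took 18.0% of morphant and 18.5% of control counts, and all 9 endothelial markers that were matched were detected in both libraries. The targeted gene, man1a2, had 195 reads in the morphant library and 193 in the control library, a log2 ratio of -0.09 (interval -0.39 to 0.20). Read counts per gene do not measure a block of translation and do not separate splice forms, so the knockdown was not measured in these libraries. Reads of each gene were scaled by median-of-ratios size factors, and a log2 ratio is morphant over control with 0.5 added to each scaled count. Intervals are 95% Clopper-Pearson intervals of that ratio without the added 0.5, and they cover counting error only. A gene was past the read test if its exact binomial p, adjusted over all 15732 genes with at least 10 reads, was under 0.05 and its fold was at least 1.2. The test compares the reads of these 2 libraries and not the conditions, since spread between pools of a group was not measured. In bulk tissue, fewer cells of a type and less RNA per cell cannot be told apart. Levels are also given as CPM, counts divided by the library total and scaled to a common total. Gene lengths were not used, so reads are compared between libraries and not between genes.

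Of 8 marker lists of other cell types, 5 differed more between the libraries than the endothelial list did (log2 ratio of sums -0.16, interval -0.23 to -0.10). The biliary (0.06) and stellate and mural (-0.0040) lists differed less. The hepatocyte list (-0.14) lay within the endothelial interval. Endothelial markers summed to 3756 reads in the morphant library and 3903 in the control library, with 1 of 9 higher and 3 lower. All 9 are also members, so this list is no separate measure of endothelial content. For this list and those below, the shares over all genes tested were 12.5% higher and 12.6% lower. All 5 matched exocrine pancreas markers were higher, with 3535 morphant and 350 control reads in sum, as were 5 of 6 epidermal markers, with 1999 and 623 reads. Leukocyte markers (13 IDs) summed to 501 morphant and 3202 control reads, with 6 of 11 tested IDs lower and 0 higher. A single mfap4 ID, ENSDARG00000090557, held 226 of the morphant and 2573 of the control leukocyte reads. The median log2 ratio of the tested leukocyte IDs was -1.30. Erythroid markers (5 IDs) summed to 384 and 793 reads, with 3 of 4 tested lower. Of 7 cardiac IDs, only myl7, a heart muscle myosin gene, had more than 3 reads, with 320 in the morphant library and 13 in the control library, and 3 were at 0 in both. Stellate and mural cell markers summed to 1991 and 1853 reads. Of their 9 tested IDs, 1 was higher, a tagln ID with 80 morphant and 15 control reads. Another 1 was lower, notch3 with 143 and 206. Biliary markers summed to 15231 and 13584 reads. Most biliary reads came from anxa4 (14588 morphant and 12942 control), and the other biliary IDs went both ways. The part of these other cell types in the values below was not tested.

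**Figure D1:**
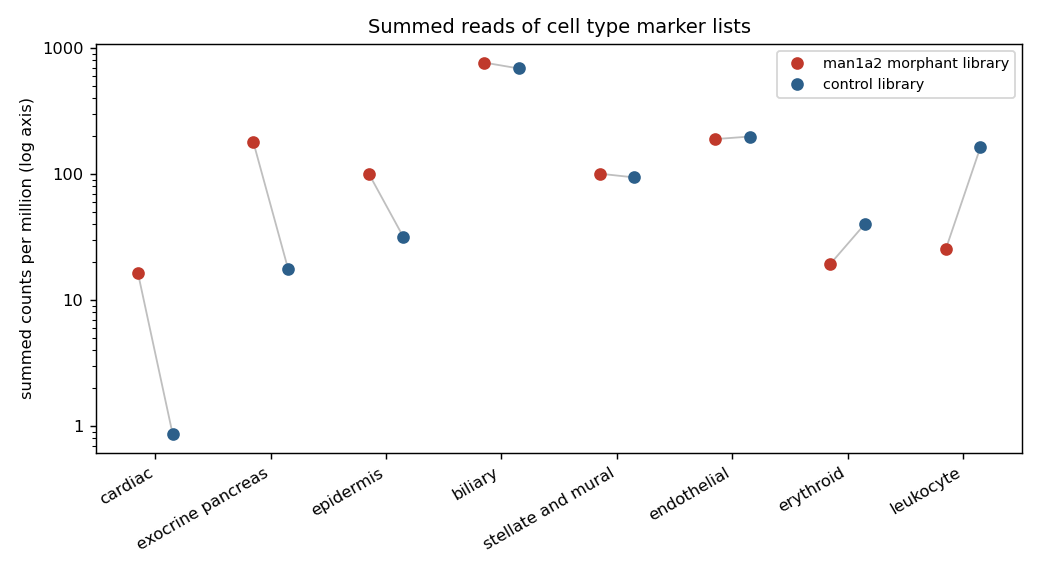
Summed CPM (log axis) of 8 cell type marker lists in the morphant library (red, left of each pair) and the control library (blue), with 1 library per point and no error between samples. The endothelial pair lies nearly level, at 190 and 199 CPM, while the exocrine pancreas pair lies at 179 and 17.8 and the leukocyte pair at 25.3 and 163. A single mfap4 ID held most of the control leukocyte reads.

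Most endothelial and vascular genes tested were not past the read test, and the 13 past it went both ways. Both vegfa IDs, apln, plvapb, lyve1a and 1 cldn5 ID rose. The genes kdr, ptprb, klf2b, cdh5, fli1, esam and plvapa fell, the last 4 of them not with total counts. Of the 53 IDs, 44 had at least 10 reads and were tested. Of the 44, 13 were past the read test (29.5%), against 25.1% of all genes tested, so their share lay near the background. They comprised 6 that rose (13.6%, against 12.5% of all genes) and 7 that fell (15.9%, against 12.6%). With total counts as the scaling, 8 were higher and 3 lower, against 20.0% and 8.89% of all genes. The median log2 ratio of the 44 was -0.16, against 0.01 over all genes tested, and 29 of the 44 ratios (65.9%) lay below 0, against 48.8% of all genes. Without a test, 2 of the 44 were higher by 2-fold or more, against 4.88% of all genes, and 2 were lower by as much, against 5.82%.

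**Figure D2:**
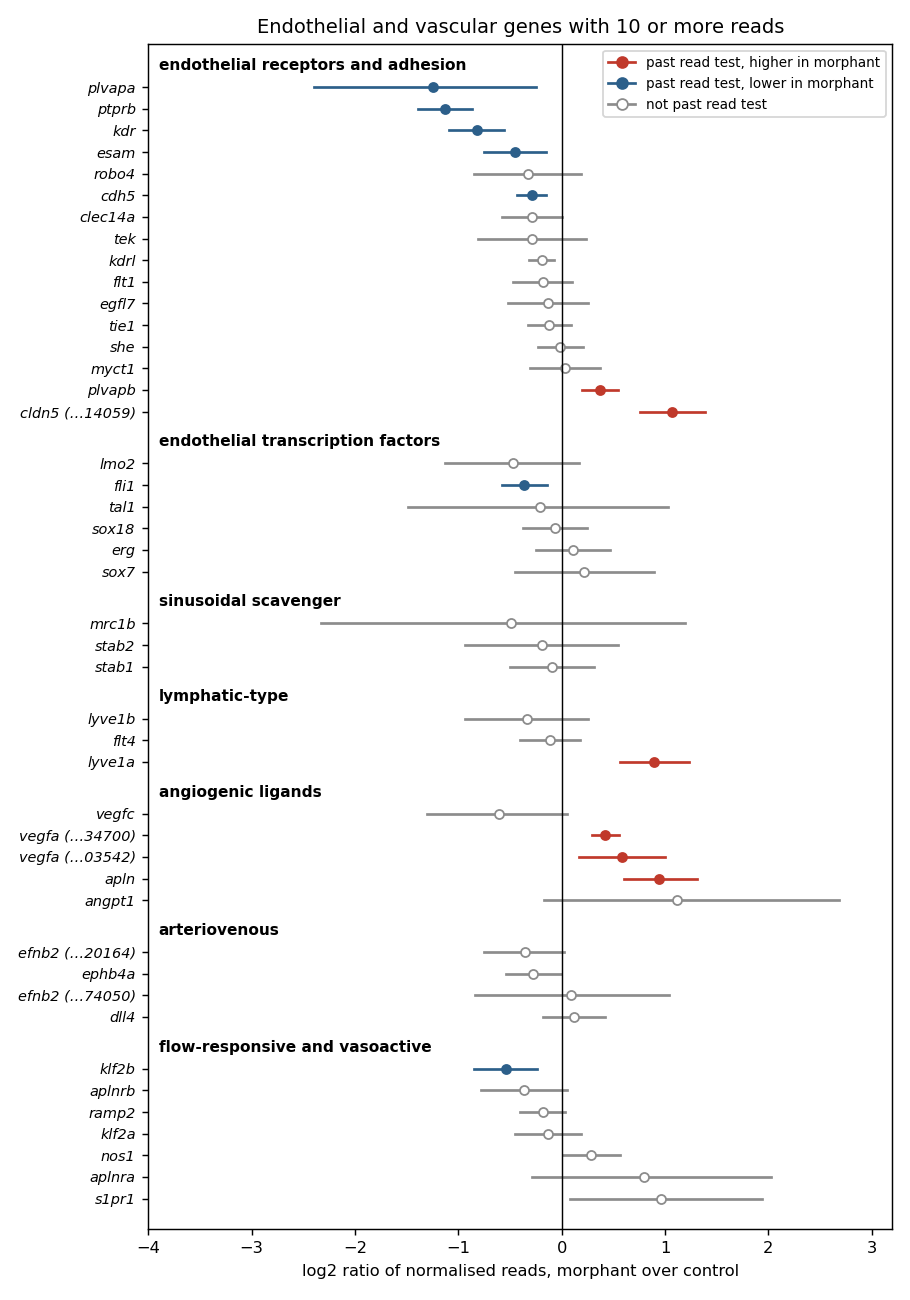
Log2 ratio of normalised reads, morphant over control, for the 44 IDs with at least 10 reads, in 7 groups by role. Points are ratios and bars are 95% intervals for counting error only. Filled red points are the 6 past the read test and higher in the morphant library, filled blue points the 7 past it and lower, and open grey points the other 31. Labels in brackets are the last digits of the gene ID where IDs share a symbol.

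The angiogenic ligands, secreted factors that start or steer vessel growth, had 3 of 5 tested members past the read test, and all 3 rose, against 12.5% of all genes higher (20.0% with total counts). The vegfa ID ENSDARG00000034700 had 1135 reads in the morphant library and 786 in the control library, a log2 ratio of 0.42 (interval 0.29 to 0.56, exact binomial adjusted p = 3.21e-09). The second vegfa ID, ENSDARG00000103542, had 129 and 80 reads in the same order, a log2 ratio of 0.58 (interval 0.168 to 1.003, exact binomial adjusted p = 0.0197). Zebrafish carry the paralogs vegfaa and vegfab, and the name table gave both IDs the symbol of the human gene, so which is which is not stated here. Vegfa is the main growth signal for blood vessel endothelium. The apelin gene apln, whose peptide acts on endothelial apelin receptors, had 210 morphant and 101 control reads, a log2 ratio of 0.95 (interval 0.60 to 1.31, exact binomial adjusted p = 3.33e-07). RefSeq places xpnpep2, which had 0 reads in both libraries, across apln in its assembly GRCz12tu. It also places protein-coding genes without a match in the count tables across kdr and plvapb and long noncoding RNA genes across vegfaa, cdh5 and esama, so a share of their reads in these members was not measured.

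The other ligands did not pass the read test. The gene vegfc, which encodes a ligand of the lymphatic receptor Flt4, had 33 reads in the morphant library and 47 in the control library, a log2 ratio of -0.61 (interval -1.31 to 0.06). The Tek agonist gene angpt1 had 17 and 7 reads, a log2 ratio of 1.12 (interval -0.17 to 2.69). Both intervals included 0, so no difference was detectable at this depth. The gene angpt2b, with 5 and 3 reads, and vegfd, with 0 and 1, had too few reads to test. In sum the 7 ligand IDs had 1529 reads in the morphant library and 1025 in the control library, a log2 ratio of 0.47 (interval 0.35 to 0.58). The larger vegfa ID made up 74.2% of the morphant and 76.7% of the control sum, and without it the sums were 394 and 239, a log2 ratio of 0.61 (interval 0.38 to 0.85). These sums leave out ligands that were not members. Of 15 tested IDs of further ligands and co-receptors, 2 were higher and 2 lower, against 12.5% and 12.6% of all genes. The 2 lower were Vegf family ligands, vegfba and a placental growth factor ID, with values given below.

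Among the receptors for Vegf, kdr fell and no other was past the read test. The Vegf receptor gene kdr had 195 reads in the morphant library and 320 in the control library, a log2 ratio of -0.82 (interval -1.09 to -0.56, exact binomial adjusted p = 3.19e-09). Its relative kdrl, a widely used marker of zebrafish endothelium, had 1065 and 1131 reads, a log2 ratio of -0.19 (interval -0.32 to -0.07). Its adjusted p was 0.00772 by the exact binomial test, but its fold was below 1.2, so it was not past the read test. Within a library, where scaling plays no part, kdr had 18.3 reads per 100 reads of kdrl in the morphant library and 28.3 in the control library, a log2 change of -0.63 with an approximate interval of -0.91 to -0.34. The Vegf receptor gene flt1 had 199 morphant and 210 control reads, and flt4 had 195 and 196. Neither was past the read test. Of these 4 Vegf receptor genes kdr was the 1 past it, and its difference from kdrl was given as an interval and not tested, since the pair was chosen after its values were seen.

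The apelin receptor genes lay on opposite sides of 0, and both intervals included it. The more counted, aplnrb, had 92 reads in the morphant library and 110 in the control library, a log2 ratio of -0.36 (interval -0.78 to 0.05). Its paralog aplnra had 21 and 11 reads, a log2 ratio of 0.80 (interval -0.29 to 2.03).

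In the angiopoietin pathway the gene that stood apart was ptprb. It encodes a receptor-type phosphatase that in mice acts on Tek and on the junction protein VE-cadherin. It had 182 reads in the morphant library and 369 in the control library, a log2 ratio of -1.13 (interval -1.39 to -0.87, exact binomial adjusted p = 1.6e-17). Of the 44 tested IDs it had the lowest adjusted p. RefSeq shows rab3ip overlapping ptprb in GRCz12tu, and rab3ip had 361 and 309 reads, a log2 ratio of 0.12. How reads in the shared span were counted is not known, so their share in ptprb was not measured. The angiopoietin receptor genes differed far less, with 61 and 69 reads for tek and 378 and 381 for the orphan receptor gene tie1. Their log2 ratios were -0.28 (interval -0.81 to 0.23) and -0.12 (interval -0.33 to 0.09). Per 100 reads of tie1, ptprb had 48.1 reads in the morphant library and 96.9 in the control library, a log2 change of -1.01 with an approximate interval of -1.34 to -0.68. Per 100 reads of cdh5 it had 22 and 39.3, a smaller log2 change of -0.83 with an approximate interval of -1.12 to -0.55. These within-library changes were not tested.

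Junction and surface genes of the endothelium moved both ways. The VE-cadherin gene cdh5 had 827 reads in the morphant library and 940 in the control library, a log2 ratio of -0.29 (interval -0.43 to -0.16, exact binomial adjusted p = 0.000165). The adhesion gene esam had 167 and 212 reads, a log2 ratio of -0.45 (interval -0.75 to -0.15, exact binomial adjusted p = 0.0118). Both falls were small, and neither gene was past the test with total counts. There cdh5 had an exact binomial adjusted p of 0.0179 but a fold below 1.2, and esam had an exact binomial adjusted p of 0.0563. Per 100 reads of kdrl, cdh5 had 77.7 reads in the morphant and 83.1 in the control library, a log2 change of -0.10 with an approximate interval of -0.28 to 0.08.

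The cldn5 ID ENSDARG00000014059 had the highest ratio among the IDs past the test. Claudin-5 seals tight junctions and is best known from brain vessels. This ID had 280 reads in the morphant library and 124 in the control library, a log2 ratio of 1.07 (interval 0.76 to 1.38, exact binomial adjusted p = 2.4e-11), and the second cldn5 ID had 3 and 6 reads. Which ID is cldn5a and which cldn5b was not given by the name table, and how the counting treated reads that match both is not stated.

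The plvap paralogs lay on opposite sides of 0. They encode the protein that forms the diaphragms of small endothelial pores and vesicles. The paralog plvapb had 635 reads in the morphant library and 456 in the control library, a log2 ratio of 0.37 (interval 0.19 to 0.55, exact binomial adjusted p = 0.000212), and plvapa had 12 and 27 reads, a log2 ratio of -1.24 (interval -2.39 to -0.25, exact binomial adjusted p = 0.0416). The plvapa call rested on 39 reads in all and was lost with a filter of at least 1 read. Per 100 reads of kdrl, plvapb had 59.6 reads in the morphant library and 40.3 in the control library, a log2 change of 0.56 with an approximate interval of 0.35 to 0.78.

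The remaining surface and signalling genes of the endothelium were not past the read test. Their log2 ratios ran from -0.33 for robo4, a guidance receptor gene with 60 morphant and 70 control reads, to 0.03 for myct1, with 152 and 138. Between them lay the surface lectin gene clec14a (190 and 215 reads), the secreted factor gene egfl7 (111 and 113) and the adaptor gene she (362 and 339). Together the 17 receptor and adhesion IDs had 4879 reads in the morphant library and 5120 in the control library, a log2 ratio of -0.18 (interval -0.23 to -0.12), and a median of -0.24. Of 16 tested IDs 2 were higher and 5 lower, against 12.5% and 12.6% of all genes, and of the 5 lower only kdr and ptprb were past the test with total counts. Without plvapb, the member that moved this sum most, the log2 ratio was -0.24.

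**Figure D3:**
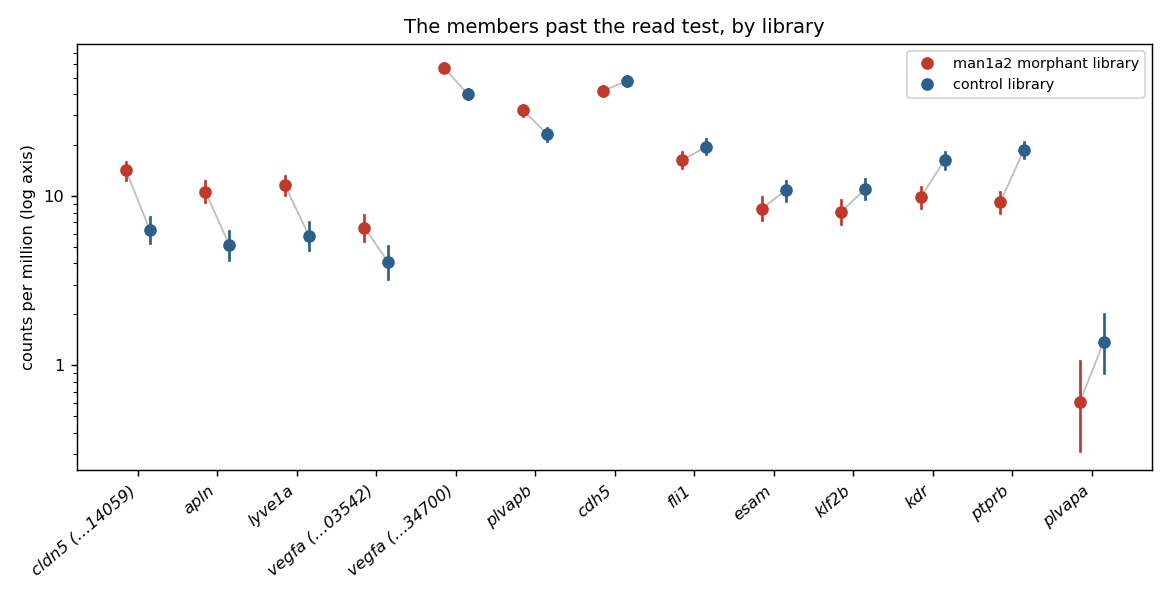
CPM (log axis) of the 13 members past the read test in the morphant library (red, left of each pair) and the control library (blue), ordered by log2 ratio. Bars are exact 95% Poisson intervals, which cover counting error only, and there was 1 library per group. The first 6 genes lie higher in the morphant library and the last 7 lower. The smallest level is that of plvapa, at 0.607 morphant and 1.37 control CPM.

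Of the tested transcription factor genes of the endothelium, only fli1 was past the read test. The ETS factor gene fli1, a lasting mark of endothelial cells, had 323 reads in the morphant library and 385 in the control library, a log2 ratio of -0.36 (interval -0.58 to -0.14, exact binomial adjusted p = 0.0049). The symbols fli1a and fli1b both led to this ID. It was not past the test with total counts, where its log2 ratio was -0.26. There its exact binomial adjusted p was 0.0498, and its fold was just below 1.2. The related ETS gene erg had 145 and 125 reads, and its interval of -0.25 to 0.46 included 0. The SoxF gene sox18 had 178 and 173 reads and sox7 had 45 and 36, with log2 ratios of -0.07 and 0.21, while sox17, with 5 and 4 reads, was not tested.

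The blood and endothelial progenitor genes had few reads. The gene lmo2 had 38 reads in the morphant library and 49 in the control library, a log2 ratio of -0.47 (interval -1.13 to 0.17), and tal1 had 12 and 13 reads. These genes are also used by red cell precursors. Erythroid markers summed to 384 morphant and 793 control reads, and their part in the lmo2 and tal1 values was not tested. The gene gata2b had 0 and 1 reads. The 8 transcription factor IDs summed to 746 morphant and 786 control reads, a log2 ratio of -0.18 (interval -0.33 to -0.04), and without fli1 the log2 ratio was -0.03 (interval -0.23 to 0.17).

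Receptor, adhesion and transcription factor genes also formed a joint, pan-endothelial group. Its 25 IDs had 5625 reads in the morphant library and 5906 in the control library, or 284 and 300 CPM, a log2 ratio of -0.18 (interval -0.23 to -0.12). With total counts the log2 ratio was -0.08. To set each gene against the endothelial content of its own library, reads were also scaled on this pan-endothelial sum, an alternative chosen after the data were seen that sets the group itself to 0. On that scale kdr (-0.64), ptprb (-0.95) and klf2b (-0.36, exact binomial adjusted p = 0.046) were past the read test and lower. The genes cdh5, esam, fli1 and plvapa were not past it. This scaling moves every ratio up by about 0.18, so the 6 genes that rose had to stay past the test. What the lower genes did followed from how far below 0 they already lay, so it is no separate support. All of these lower genes but klf2b are also part of the pan-endothelial sum. With nos1 and s1pr1 this scaling gave 8 higher and 3 lower, against 26.8% and 6.86% of all genes.

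**Figure D4:**
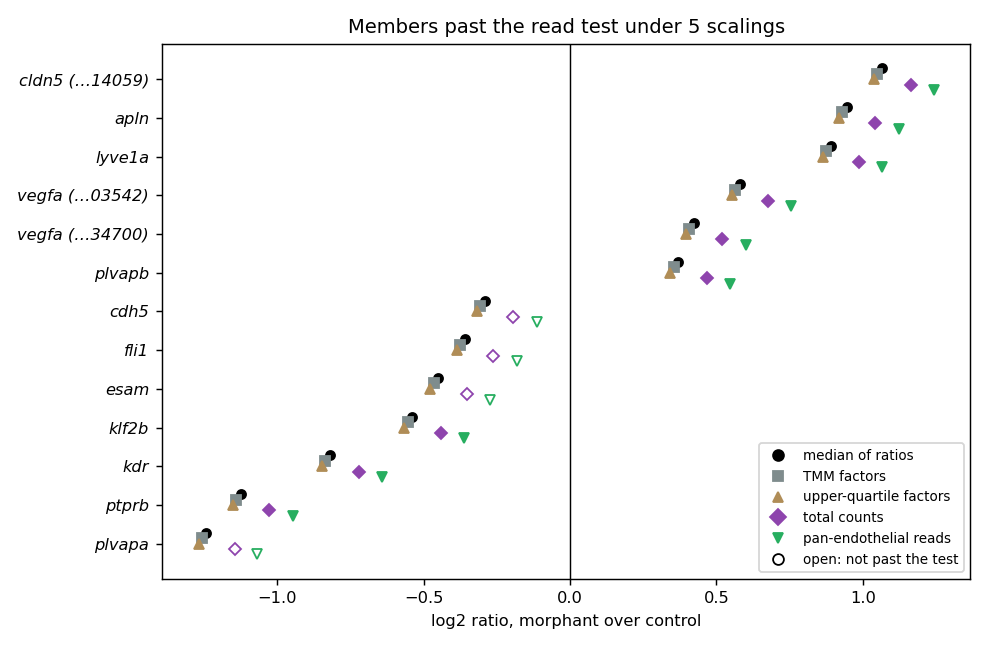
Log2 ratio, morphant over control, of the 13 members past the read test under 5 scalings. Filled symbols are past the read test under that scaling and open symbols are not. The 3 lower genes kdr, ptprb and klf2b are filled under every scaling shown, as are the 6 higher genes. Total counts and pan-endothelial reads can only move ratios up, and cdh5, fli1, esam and plvapa are open under both. Each scaling shifts all genes by nearly the same amount, so the scalings are not separate tests.

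The 3 scavenger receptor IDs listed as members for the sinusoid were level within counting error. The gene stab1 had 104 reads in the morphant library and 103 in the control library, a log2 ratio of -0.09 (interval -0.50 to 0.31). Its relative stab2 had 32 and 34 reads, a log2 ratio of -0.19 (interval -0.94 to 0.54). Both encode stabilins, large receptors that clear hyaluronan and other ligands from blood. The mannose receptor gene mrc1b had 6 and 8 reads, a log2 ratio of -0.49 (interval -2.33 to 1.19), so a change of 2-fold in either direction could not be detected for it. The 3 IDs summed to 142 and 145 reads, a log2 ratio of -0.14 (interval -0.48 to 0.21). Of 5 tested IDs on a further list for scavenging endothelium, 2 were lower and 0 higher, against 12.6% and 12.5% of all genes. Among the lower was a mannose receptor ID under MRC1, with 31 and 56 reads, described below.

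The lymphatic-type genes were led by lyve1a. Lyve1 is a hyaluronan-binding receptor that in mammals marks lymphatic and sinusoidal endothelium. The paralog lyve1a had 230 reads in the morphant library and 115 in the control library, a log2 ratio of 0.89 (interval 0.56 to 1.23, exact binomial adjusted p = 3.88e-07). The paralog lyve1b had 46 and 54 reads, a log2 ratio of -0.34 (interval -0.94 to 0.26). These intervals of the 2 paralogs did not overlap. In sum the 3 IDs, with flt4, had 471 and 365 reads, a log2 ratio of 0.26 (interval 0.06 to 0.46), but lyve1a alone set its direction: without it the sums were 241 and 250, a log2 ratio of -0.16 (interval -0.42 to 0.10).

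**Figure D5:**
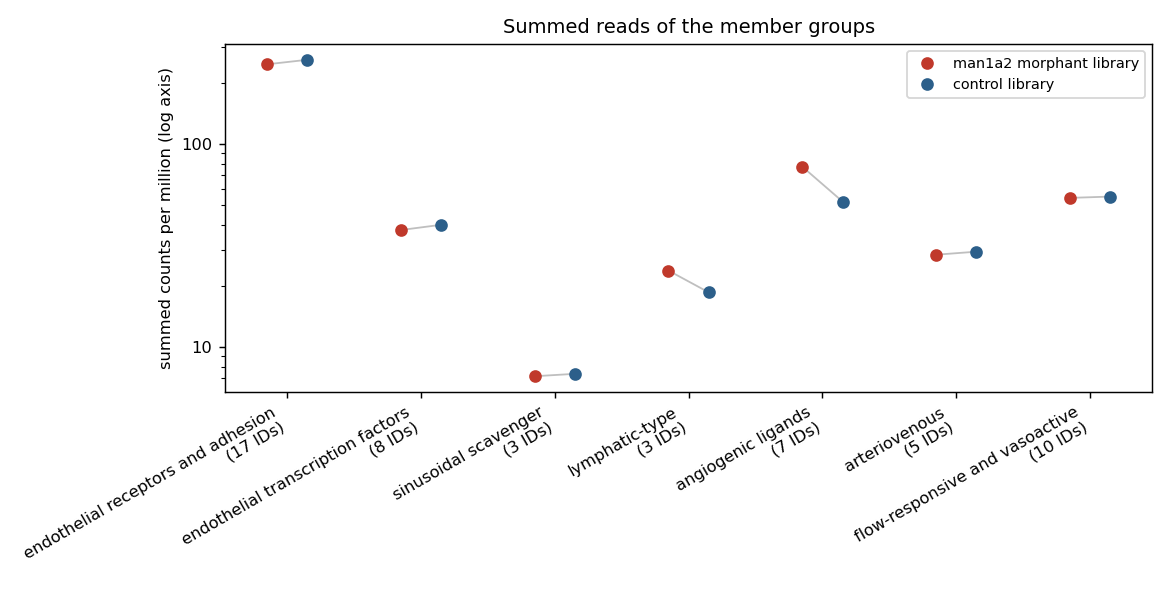
Summed CPM (log axis) of the 7 member groups in the morphant library (red, left of each pair) and the control library (blue), with 1 library per point. The angiogenic ligands lie at 77.3 and 52.1 CPM and the lymphatic-type genes at 23.8 and 18.6. The sinusoidal scavenger genes lie at 7.18 and 7.38, and the other groups are also nearly level.

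Arteriovenous genes were not past the read test in either direction. The arterial Notch ligand gene dll4 had 208 reads in the morphant library and 178 in the control library, a log2 ratio of 0.12 (interval -0.18 to 0.41). The venous receptor gene ephb4a had 228 and 256 reads, a log2 ratio of -0.27 (interval -0.54 to -0.01, exact binomial adjusted p = 0.106). Its arterial ligand gene efnb2 was matched by 2 IDs, with 104 and 124 reads for one and 23 and 20 for the other, and both intervals included 0. The arterial transcription factor gene hey2 had 0 and 1 reads. The 5 IDs summed to 563 and 579 reads, a log2 ratio of -0.15 (interval -0.32 to 0.02). Without dll4, the member that moved this sum most, it was -0.28 (interval -0.49 to -0.07).

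Genes that respond to blood flow or act on vessel tone were mixed. The flow-responsive factor gene klf2b had 160 reads in the morphant library and 216 in the control library, a log2 ratio of -0.54 (interval -0.84 to -0.24, exact binomial adjusted p = 0.00201), and its paralog klf2a had 169 and 172, a log2 ratio of -0.13 (interval -0.45 to 0.18). The intervals of the paralogs overlapped. The nitric oxide synthase gene nos1 had 256 and 195 reads, a log2 ratio of 0.28 (interval 0.01 to 0.56), and s1pr1, a receptor gene for sphingosine-1-phosphate, had 34 and 16 reads, a log2 ratio of 0.96 (interval 0.08 to 1.94). Neither was past the read test, with exact binomial adjusted p = 0.108 for nos1 and 0.0847 for s1pr1, but with total counts both were past it and higher (0.0198 for nos1 and 0.0472 for s1pr1, exact binomial test). The adrenomedullin co-receptor gene ramp2 had 343 and 362 reads, a log2 ratio of -0.19 (interval -0.40 to 0.03).

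The last members of this group had at most 1 read in either library. The 2 IDs matched by ednrba, under the symbol of the endothelin B receptor, had 0 reads in both libraries. By a 1-sided 95% bound, that allows up to 0.152 CPM in the morphant and 0.153 in the control library. The factor gene klf4 had 0 and 1 reads. The 10 IDs of the group summed to 1075 and 1083 reads, a log2 ratio of -0.12 (interval -0.24 to 0.00). Without nos1, the member that moved this sum most, it was -0.22 (interval -0.36 to -0.09).

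Other genes of vascular pathways were compared from a list of 64 symbols, of which 61 gave 63 further IDs. Of these, 52 were tested, and 4 were past the read test and higher and 8 lower, against 12.5% and 12.6% of all genes. The median log2 ratio was 0.04. The 3 that fell farthest by the interval bound nearest 0 were an endocytic adaptor gene under DAB2 (ENSDARG00000053091), with 455 reads in the morphant library and 699 in the control library, heg1, a transmembrane gene of endothelial junctions, with 139 and 231, and the mannose receptor gene under MRC1, with 31 and 56. Their log2 ratios were -0.73, -0.84 and -0.95. The other dab2 ID, ENSDARG00000031761, had 332 morphant and 297 control reads, a log2 ratio of 0.05, and was not past the read test. Mannose receptor genes are also known from macrophages. The leukocyte markers summed to 501 morphant and 3202 control reads, most of the latter from a single mfap4 ID. Their part in the MRC1 value was not tested. The 3 that rose farthest were the endothelin gene edn1, with 19 and 4 reads, the forkhead factor gene foxc1b, with 29 and 11, and the guidance gene sema3d, with 102 and 62.

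The other 6 past the read test on that list were named after their values were seen. The homeobox factor gene hhex, used in early liver and endothelium, had 121 reads in the morphant library and 77 in the control library (log2 ratio 0.54) and was higher. Of the Vegf genes, vegfba had 521 reads in the morphant library and 632 in the control library (log2 ratio -0.39) and the placental growth factor ID 13 and 28 (-1.18), both lower, whereas the neuropilin co-receptor IDs were not past the read test. In sphingosine-1-phosphate signalling, the kinase gene sphk2 had 126 and 180 reads (-0.62) and the exporter gene spns2 125 and 156 (-0.43), both lower. Of the IDs for calcrl, whose product pairs with Ramp2 as the adrenomedullin receptor, the one under CALCRL had 38 and 63 reads (-0.83) and was lower, while calcrla had 25 and 12 (0.92) and was not past the read test. Some calls on this list lay close to the threshold of 0.05. The exact binomial adjusted p was 0.0498 for spns2, 0.0469 for the placental growth factor ID and 0.0419 for foxc1b.

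Differences between pools of the same group do not enter the read test. With edgeR's exact test and an assumed biological coefficient of variation of 0.1, 5 of the 44 IDs were past the thresholds, against 6.37% of all genes: ptprb (adjusted p = 0.000235), kdr, apln, lyve1a and the cldn5 ID. With 0.2, 0 of the 44 were past them, against 1.40% of all genes, while 4 had an unadjusted p under 0.05 and ptprb had the lowest adjusted p, 0.295, in edgeR's exact test. With 0.4, and with a dispersion estimated by treating both libraries as 1 group, 0 were past them, against 0.273% and 0.744% of all genes, and 0 and 2 had an unadjusted p under 0.05. The median coefficient of variation of that estimate was 0.295 over the genes tested, above the 0.1 under which 5 IDs were past the thresholds. It counts any difference between the groups as spread.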

How the data were processed

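Liver RNA of 1 morphant and 1 control pool was poly-A selected and sequenced as strand-specific libraries. The authors deposited raw counts, whole reads per Ensembl gene ID, without normalization. Build GRCz10 and the tools FastQC and DESeq2 stand in the submitters' processing notes; the aligner, the counter, its use of strand and its handling of reads that match several genes are not given in the sources used here. No other column of values was present. Symbols came from a name table that covered 26121 of 31953 IDs (81.7%), with human symbols for many genes. RefSeq's GRCz12tu table served only to find overlapping genes.

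Counts were analysed in R 4.3.3 with DESeq2 1.42.0 size factors. With 1 library per group edgeR's quasi-likelihood test could not be fitted, so an exact binomial test, 2-sided by 2 times the smaller tail, was run over all genes with at least 10 reads with Benjamini-Hochberg adjustment, using the study's thresholds (0.05 and 1.2-fold). It was checked on simulated reads that held counting error alone, so the check does not cover differences between pools. Ratios of sums carry no pseudocount, and intervals of ratios within a library are normal approximations. Alternatives used TMM, upper-quartile and total-count scaling, other filters, folds and pseudocounts, and edgeR 4.0.16's exact test. The 2 libraries were of nearly equal depth (19783886 morphant and 19658335 control counts). By a 1-sided 95% bound, a count of 0 allows up to 3 counts. Intervals cover counting error only, and they and the binomial test treat reads as independent. PCR copies are not independent molecules, so the intervals can be too narrow and the p-values too small. Members and lists were chosen with earlier results of these data known. Every member is given, with full values for those past the test, and of the further pathway genes the 3 in each direction with the interval bound farthest from 0, and after these the others past the test and calcrla, added after their values were seen. No sequence of the genes themselves was used.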

Additional observations from a re-analysis of the deposited data

How the results depend on the processing

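No paired analysis was possible because only 1 morphant and 1 control library were sequenced. The counts of 6 members higher and 7 lower kept within 1.5 times under TMM and upper-quartile scaling, no minimum fold, and read minimums of 1 and 100. With total counts 3 were lower, and with scaling on pan-endothelial reads, added after the data were seen, 3 as well. A minimum fold of 2 left 1 higher and 2 lower, and matching by full symbol alone left 3 higher. In edgeR's exact test an assumed coefficient of variation of 0.1 left 3 higher and 2 lower, and 0.2, 0.4 and the blind dispersion left 0 of each. Total counts put the sums of the pan-endothelial and the receptor and adhesion group at -0.0793 and -0.0785. Without the member with the most reads the sums were 0.60 for lymphatic-type genes, -0.0305 for transcription factors (also by full symbol alone) and 0.61 for ligands (0.63 by full symbol alone). Without the member that moved it most, added later, the sum of lymphatic-type genes reversed to -0.16 (without lyve1a). Other sums that moved outside the interval of the full sum were -0.23 (pan-endothelial) and -0.24 (receptors and adhesion), both without plvapb. The same held for transcription factors at -0.0305 (without fli1) and ligands at 0.61 (without the larger vegfa ID). Members near 0 changed sign: with total counts stab1 was at 0.0047, sox18 at 0.0318 and she at 0.0854, and with pan-endothelial reads stab1 was at 0.0839, sox18 at 0.11, she at 0.16, flt4 at 0.0628, tie1 at 0.0589, egfl7 at 0.0444 and klf2a at 0.0448. None of these was past the read test. Causes other than the scaling or the member left out were not tested. For members under about 50 reads, a 1.5-fold difference was mostly within counting error.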
